A study of Homo sapiens with 10 samples.

Results

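The amyloid-processing genes described here were 9 genes, the gamma-secretase subunit genes APH1A, APH1B, PSEN2, PSENEN and NCSTN, the beta-secretase gene BACE1, and the substrate genes APP, APLP1 and APLP2. They were picked by gene name, and earlier results of these data were known when the set was made. All 9 had 1 row each in both deposited tables, among 23416 genes with values for the siRNA experiment and 23426 for the miRNA experiment. The libraries came from SH-SY5Y, a human neuroblastoma line with noradrenergic, neuroblast-like features. In the first experiment 3 libraries came from cells given 100 nM of siRNA to LncND, a long non-coding RNA, and 3 from cells given scrambled siRNA. In the second, 2 libraries came from cells given 50 nM of miR-143-3p mimic, a synthetic copy of that microRNA, and 2 from cells given scrambled miRNA. Cells in all groups were grown in DMEM/F12 with serum and antibiotic and harvested after 72 h, and the labels name no genetic change. The scrambled controls' doses were not stated, and the level of LncND itself was not analysed here. The values are FPKM, a level per transcript length and per library total.

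Gamma-secretase is a membrane protease of a presenilin, nicastrin (NCSTN), an APH1 protein and PEN-2 (PSENEN), and it cuts the stubs of type I membrane proteins inside the membrane after their outer part has been shed. Its substrates include the Notch receptors, whose cut releases the signalling fragment, and the amyloid precursor protein (APP) with its relatives APLP1 and APLP2. BACE1 sheds APP at the beta site, and the following gamma-secretase cut gives the amyloid-beta peptides. Presenilin is the catalytic subunit, nicastrin receives the substrate stub, and PEN-2 is needed for the presenilin to become active. APH1 exists in cells as either of a pair of paralogues, APH1A or APH1B, and a complex holds only one of them. The series title places LncND in Notch signalling by way of a sequestered miRNA, so the subunits of the enzyme that releases Notch are of direct interest in both comparisons.

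The microRNA that was supplied as a mimic is shown first, with its seed (bases 2 to 8) in capitals, because it sets the letters searched for in the members' transcripts. It is 21 bases long and is encoded on chromosome 5 (GRCh38.p14, 149428978 to 149428998, plus strand, RefSeq).
hsa-miR-143-3p: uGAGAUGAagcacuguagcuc
Matches were searched as TCATCTCA (8mer), TCATCTC (7mer-m8) and CATCTCA (7mer-A1) in the longest annotated 3′ UTR of each gene (GENCODE release 29), on the transcript strand. Of the 9 genes, 8 held none of these in the stretch searched, from 347 bases in APLP1 to 3345 in APH1B. BACE1, with 4359 bases searched, was the one member with matches, which included a 7mer-m8 match at bases 681 to 687 after the stop codon. This one is given here with the match in capitals, because BACE1 is the member on which the seed and the measured change can be set side by side.
BACE1 7mer-m8: tttagaccTCATCTCcaagatagc
Of the genes tested with the mimic and with an annotated 3′ UTR (11201), 25.1% held at least 1 match of 7 or 8 letters. A match is a run of letters and not a shown site.

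Of the libraries as a whole, log2 values correlated across genes at 0.988 to 0.997 within groups and 0.962 to 0.968 between groups of a table. The depth of the libraries was not stated and was estimated at 13.9 to 44.2 M fragments from the FPKM of olfactory receptor genes with single fragments, which rests on 3 to 14 genes a library. At these estimates a 2-kb transcript at 1 FPKM would have 27.8 to 88.4 fragments. RNY4, a Y RNA gene, was listed at 1224670 FPKM in LncND siRNA replicate 1 and at 0.001 in all others. Without that library the same 8 of the 9 genes described here passed, with changes from -0.65 for APH1A to 1.415 for APLP1 on the log2 scale. The 8 noradrenergic neuroblastoma markers summed to 1140 to 1180 FPKM in scrambled siRNA and 1230 to 1280 in LncND siRNA. Their sum was 2150 to 2160 in scrambled miRNA and 1600 in both mimic libraries. Of these markers 7 were tested. Under LncND siRNA 2 rose, 4 fell and 1 did not pass (median change -0.199 on the log2 scale), so the higher sum there was not shared by most of them. In the mimic comparison 3 rose and 4 fell (median -0.3). Schwann and glial markers summed to 3.59 to 3.71 FPKM and 6.41 to 6.74 with LncND siRNA, and to 4.38 to 5.3 and 3.49 to 3.5 with the mimic; 1 of 8, S100B, was tested, GFAP stayed at or under 0.063 FPKM and OLIG2 at or under 0.029 FPKM. Epithelial markers summed to 0.649 to 0.948 FPKM and 2.03 to 2.27 with LncND siRNA, and to 1.06 to 1.14 and 0.819 to 0.841 with the mimic, with none of 6 tested. Endothelial and blood markers summed to at most 0.441 FPKM. The part of these levels in the changes described here was not tested.

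With LncND siRNA, 7 of the 9 genes rose, 1 fell and 1 did not pass the test. APLP1 rose to 2.645 times its control in mean FPKM, APH1B to 2.286, PSEN2 to 1.661 and APLP2 to 1.547 times, while APH1A, the abundant APH1 gene, fell to 0.653 of its control. With the miR-143-3p mimic no member moved by more than 21.1% in mean FPKM. BACE1, APP and APLP1 rose by 20.05%, 20.4% and 21.1%, APLP2 and PSENEN fell (-18.7% and -12.4%), and the other 4 genes did not pass. Tests were made with limma on log2(FPKM + 1) over all genes whose mean reached 1 FPKM, with Benjamini-Hochberg adjustment over all of them and a threshold of 0.05. The background was high. In all, 66.9% of 12601 tested genes were called with LncND siRNA (36.6% up, 30.3% down) and 63.3% of 12558 with the mimic (24.6% up, 38.6% down). After median-ratio scaling the mimic called 31.3% of genes upward and 32.3% downward, and after quantile normalization 33% and 30.7%. For LncND siRNA the same scalings gave 33.8% upward and 33.3% downward, and 31.9% and 37%. With quantile normalization 3 members rose and 1 fell with the mimic, and 6 rose and 1 fell with LncND siRNA. The members called were 88.9% and 55.6% of the 9, so being called says little about a member, and the sizes below carry the description. The median change of the 9 genes was 0.365 on the log2 scale with LncND siRNA, against 0.024 over all tested genes, and 0.012 with the mimic, against -0.062.

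**Figure D1:**
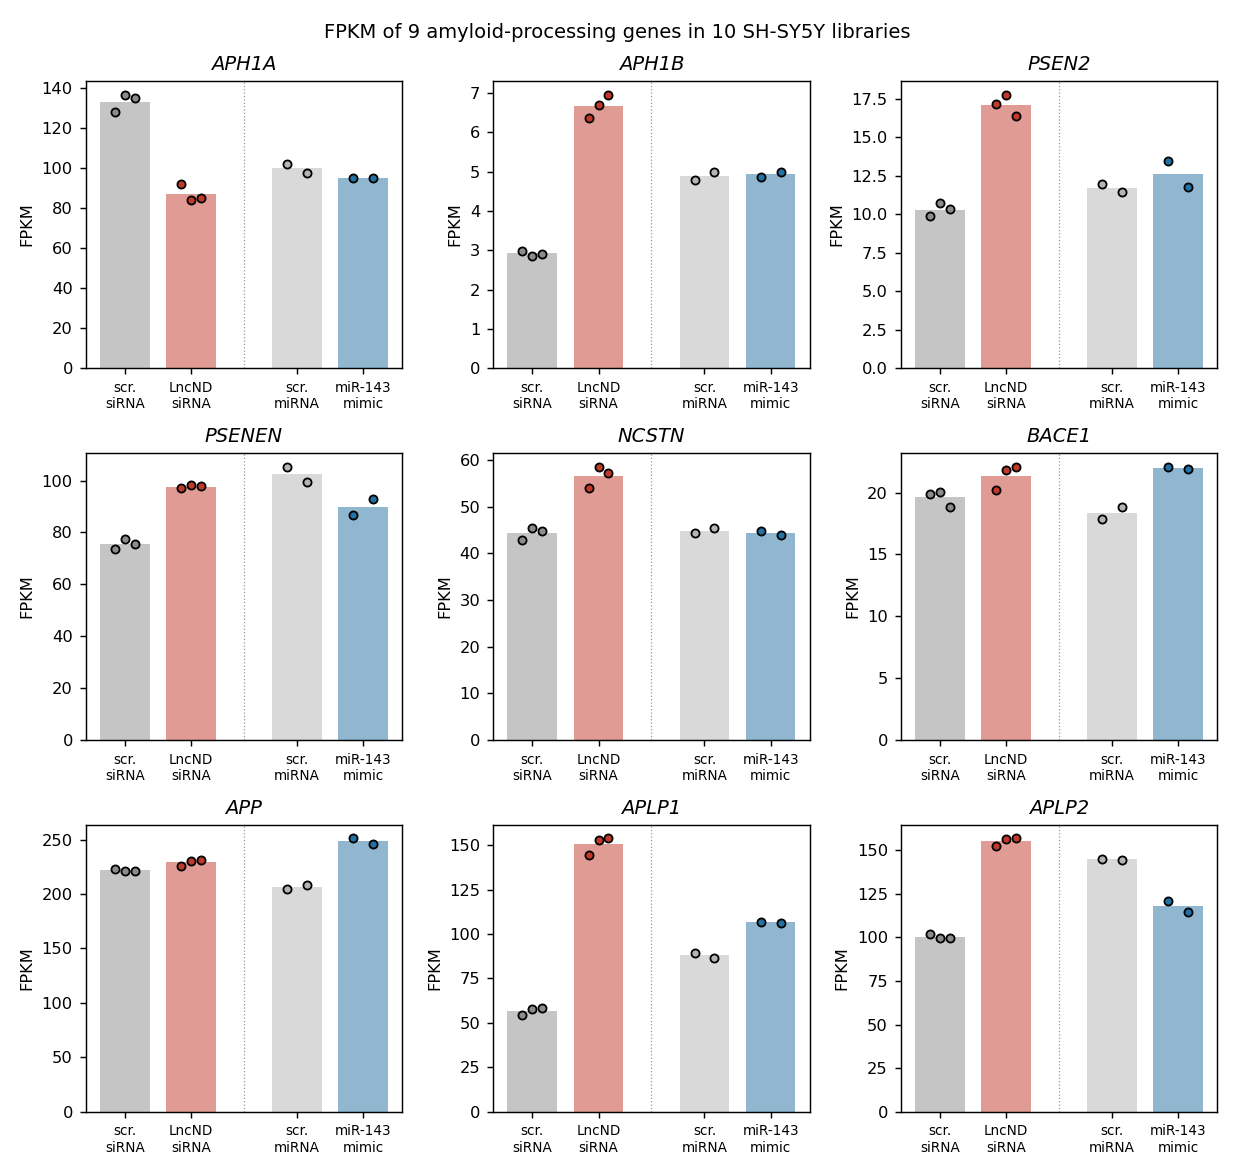
FPKM (y axis, from 0, one scale per gene) of the 9 genes in each of the 10 libraries. Points are libraries, bars are group means, and the dotted line parts the siRNA table from the miRNA table, which were normalized separately. APLP1, APLP2, APH1B and PSEN2 stand higher with LncND siRNA, APH1A stands lower, and APH1A, APH1B and NCSTN lie close together in the groups of the miRNA table.

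The gamma-secretase subunit genes are taken first. APH1A (hg19 chromosome 1, 150237798 to 150241609, as for all positions from the deposited tables) was at 128, 137 and 135 FPKM with scrambled siRNA and at 92.03, 83.8 and 84.9 with LncND siRNA. All 3 LncND siRNA libraries lay below all 3 controls, and the fall was -0.61 ± 0.047 (SE) on the log2(FPKM + 1) scale (limma adjusted p = 2.03e-06). A lower level in bulk RNA can come from fewer cells with the transcript or from less of it per cell, and these cannot be told apart here. APH1B (chromosome 15, 63569748 to 63601325), the paralogue of APH1A, moved the other way. It was at 2.99, 2.86 and 2.91 FPKM with scrambled siRNA and at 6.36, 6.69 and 6.96 with LncND siRNA, a rise of 0.97 ± 0.048 (limma adjusted p = 1.15e-07). The groups did not overlap, and only 3.02% of tested genes had a larger absolute change.

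Because both genes were measured in the same library, their ratio does not depend on a scaling factor applied to a whole library. APH1A was 42.7, 47.8 and 46.3 times APH1B with scrambled siRNA and 14.5, 12.5 and 12.2 times with LncND siRNA. APH1B made up 2.05% to 2.29% of the summed FPKM of the pair in the controls and 6.47% to 7.58% with LncND siRNA. The ratio of APH1B to APH1A was 3.498 times that of the controls (exact permutation test, 2-sided, p = 0.1, the smallest that 3 against 3 libraries allow). The sum of the pair was 131 to 139 FPKM in the controls and 90.5 to 98.4 with LncND siRNA, so the rise of APH1B was far smaller in FPKM than the fall of APH1A.

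PSEN2 (chromosome 1, 227058272 to 227083804), a presenilin gene and so a gene of the catalytic subunit, rose. It was at 9.87, 10.7 and 10.3 FPKM with scrambled siRNA and at 17.2, 17.8 and 16.4 with LncND siRNA (0.68 ± 0.045, limma adjusted p = 6.57e-07). The lowest LncND siRNA library lay well above the highest control. PSENEN (chromosome 19, 36236493 to 36237903), the gene of PEN-2, was at 73.5, 77.6 and 75.7 FPKM against 97.2, 98.1 and 97.7 (0.37 ± 0.036, limma adjusted p = 1.12e-05). NCSTN (chromosome 1, 160313062 to 160328742), the gene of nicastrin, was at 42.8, 45.4 and 44.7 FPKM against 53.98, 58.6 and 57.2 (0.35 ± 0.042, limma adjusted p = 4.83e-05). Both were higher in every LncND siRNA library than in any control, by 29.2% and 27.7% in the mean. The first 292 bases of the NCSTN row also lie in the row of COPA, a coat protein gene. Of the 5 subunit genes, 4 rose and 1 fell with LncND siRNA, beside 36.6% of all tested genes up and 30.3% down, and the fall was that of the subunit gene with the highest FPKM under scrambled siRNA.

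With the mimic 4 of the 5 subunit genes did not pass the test, while 63.3% of all tested genes did pass. APH1A was at 102 and 97.4 FPKM with scrambled miRNA and at 94.9 and 95.2 with the mimic (-0.069 ± 0.043, limma adjusted p = 0.186). APH1B was at 4.78 and 5.001 FPKM against 4.87 and 5.002, with overlapping groups, and NCSTN was at 44.3 and 45.4 against 44.8 and 43.8, also overlapping. Their log2 changes were 0.012 and -0.017, with 95% intervals from -0.14 to 0.16 and from -0.11 to 0.080. PSEN2 was at 11.9 and 11.4 FPKM against 13.5 and 11.8 (0.10 ± 0.067, limma adjusted p = 0.211) and passed only when mimic replicate 2 was left out (0.19, adjusted p = 0.0283), with adjusted p-values from 0.0283 to 0.882 over the alternatives. PSENEN was the one subunit gene that passed, at 105 and 99.4 FPKM with scrambled miRNA and at 86.7 and 92.8 with the mimic (-0.19 ± 0.049, limma adjusted p = 0.00784). That call ended under quantile normalization (-0.075, adjusted p = 0.157) and without scrambled miRNA replicate 1 (-0.15, adjusted p = 0.0676), with adjusted p-values from 0.00249 to 0.157 over the alternatives. The ratio of APH1B to APH1A was 1.06-fold that of the controls (exact permutation p = 0.333, the smallest that 2 against 2 libraries allow).

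BACE1 (chromosome 11, 117156401 to 117186972), the protease gene that opens the amyloid pathway, rose with the mimic. It was at 17.8 and 18.8 FPKM with scrambled miRNA and at 22.1 and 21.9 with the mimic, with no overlap (0.25 ± 0.049, limma adjusted p = 0.00154). This is the one member with seed matches in the 3′ UTR searched, and its level was higher with the mimic than with the scrambled miRNA. Any action of the mimic on these matches was not tested. With LncND siRNA it was at 20.2, 21.8 and 22.1 FPKM against 19.9, 20.06 and 18.9, a difference of 0.12 ± 0.044 that passed narrowly (limma adjusted p = 0.0383). That call ended under 10 of 14 alternatives, with adjusted p-values from 0.00547 to 0.145. They included median-ratio scaling (0.089, adjusted p = 0.113), quantile normalization (0.098, adjusted p = 0.0947), no filter on low values (adjusted p = 0.0647), no variance trend (0.0539) and the replicate number as a block (0.0672). Leaving out scrambled siRNA replicate 1, 2 or 3 gave 0.13, 0.13 and 0.091 (adjusted p = 0.0622, 0.0509 and 0.145), and leaving out LncND siRNA replicate 2 or 3 gave 0.10 and 0.094 (0.116 and 0.127).

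The row of BACE1-AS, a non-coding RNA transcribed antisense to BACE1, lies within that of BACE1 and was added here after its values had been seen. The libraries were made with a stranded kit, but no source used here gives the strand setting of the quantification, so the reads of both genes cannot be told apart with certainty. BACE1-AS was at 3.43 and 3.47 FPKM with scrambled miRNA and at 4.58 and 4.83 with the mimic (0.36 ± 0.069, limma adjusted p = 0.00141). BACE1 was 5.2 and 5.42 times BACE1-AS in those controls and 4.83 and 4.53 times with the mimic. With LncND siRNA, BACE1-AS was at 3.59 to 4.22 FPKM against 3.65 to 4.11, with overlapping groups (-0.013, limma adjusted p = 0.859).

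The substrate genes followed, and here the 3 relatives parted from each other. APP (chromosome 21, 27252860 to 27543446), the most abundant of the 9 genes, was at 223, 221 and 221 FPKM with scrambled siRNA and at 226, 230.3 and 231 with LncND siRNA. The groups did not overlap, but the difference was 0.047 with a 95% interval from -0.040 to 0.13 and did not pass (limma adjusted p = 0.308). All 9 genes had groups without overlap in this comparison, as did 70.9% of all tested genes. APLP1 (chromosome 19, 36359400 to 36370699), a relative of APP expressed mainly in neurons, was at 54.6, 57.8 and 58.3 FPKM with scrambled siRNA and at 145, 153 and 154 with LncND siRNA. Its rise of 1.39 ± 0.042 (limma adjusted p = 7.66e-09) was the largest among the 9 genes, and 0.722% of tested genes had a larger absolute change. APLP2 (chromosome 11, 129939715 to 130014706), the broadly expressed relative, was at 102, 99.8 and 99.5 FPKM against 152, 156 and 157 (0.62 ± 0.037, limma adjusted p = 3.12e-07). Both relatives were far above every control in all 3 LncND siRNA libraries.

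With the mimic, APP was at 204 and 208 FPKM in the controls and at 251 and 246 in the mimic libraries (0.27 ± 0.042, limma adjusted p = 0.000383). APLP1 was at 89.6 and 86.5 FPKM against 107 and 106 (0.27 ± 0.042, limma adjusted p = 0.000308). APLP2 went down, from 145 in both controls to 121 and 115 FPKM (-0.30 ± 0.044, limma adjusted p = 0.000258). None of the 3 had groups that overlapped, which held for 6 of the 9 genes and for 81.9% of all tested genes. Quantile normalization changed the size of all 3, to 0.43 for APP, 0.39 for APLP1 and -0.15 for APLP2, and all still passed (adjusted p = 1.86e-05, 1.92e-05 and 0.0126). Over the alternatives their adjusted p-values ran from 1.86e-05 to 0.00539, from 1.92e-05 to 0.0046 and from 6.59e-05 to 0.0126.

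**Figure D2:**
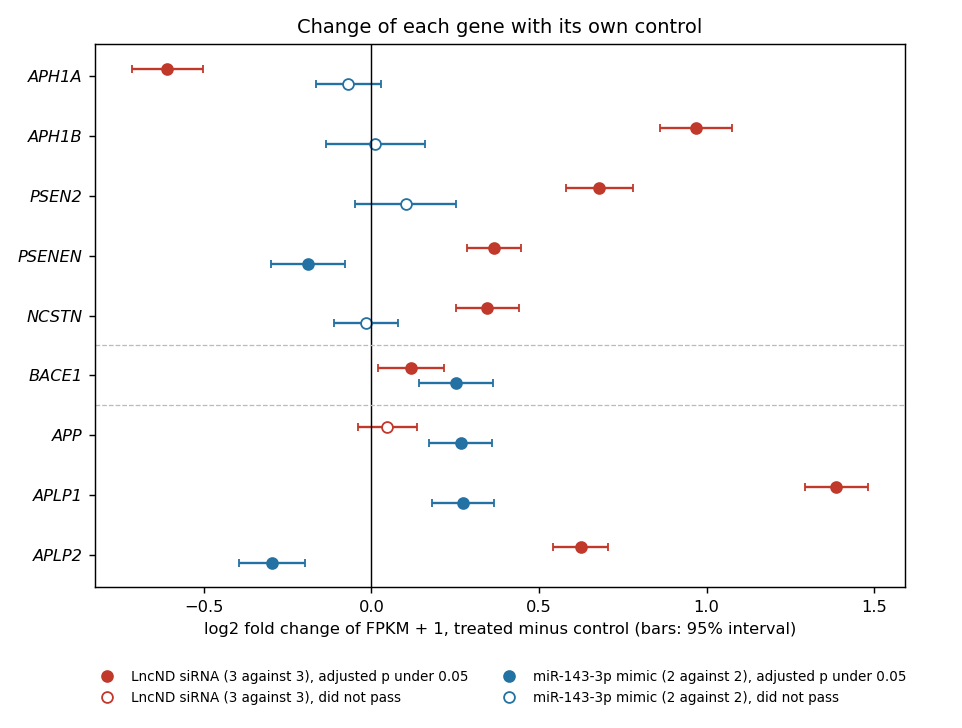
Change of the 9 genes on the log2(FPKM + 1) scale, treated minus control (x axis), with 95% intervals from limma. Filled points passed at an adjusted p under 0.05, open points did not, and dashed lines part subunits, BACE1 and substrates. The LncND siRNA points spread from -0.61 for APH1A to 1.39 for APLP1, and the mimic points from -0.30 for APLP2 to 0.27 for APLP1.

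Within the family the mixture of transcripts shifted. APP made up 58.8%, 58.4% and 58.4% of the summed FPKM of the 3 substrate genes with scrambled siRNA and 43.2%, 42.7% and 42.7% with LncND siRNA. The share of APLP1 went from 14.4%, 15.3% and 15.4% to 27.7%, 28.3% and 28.4%, while that of APLP2 was 26.2% to 26.8% and then 28.9% to 29.1%. The sum itself was 378 to 380 FPKM in the controls and 523 to 542 with LncND siRNA. With the mimic the share of APP was higher, at 52.4% and 52.6% against 46.5% and 47.4%, and that of APLP2 lower, at 25.3% and 24.6% against 33.1% and 32.9%. These shares are within a library, so a scaling factor of the whole library does not touch them. They restate the FPKM above and were not tested.

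**Figure D3:**
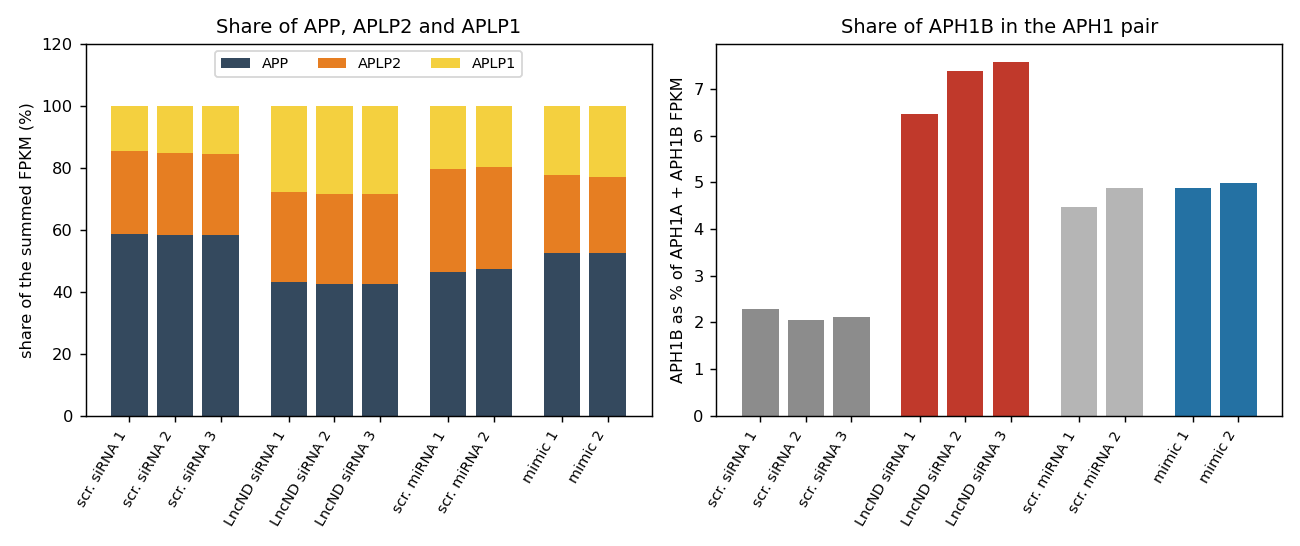
Left, share (%) of APP, APLP2 and APLP1 in their summed FPKM for each of the 10 libraries; right, FPKM of APH1B as a percentage of APH1A plus APH1B. The APP share is near 58% with scrambled siRNA and near 43% with LncND siRNA, and the APH1B share is 2.05% to 2.29% and then 6.47% to 7.58%.

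Both effects were then set against each other in a limma model over the 10 libraries, as the effect of LncND siRNA minus that of the mimic, each within its own table. The difference passed for 8 of the 9 genes, and for 60.2% of the 12327 genes tested in both tables. The difference was 1.11 ± 0.061 for APLP1, 0.96 ± 0.074 for APH1B and 0.92 ± 0.055 for APLP2 (limma adjusted p = 8.49e-09, 1.95e-07 and 1.79e-08). It was 0.58 for PSEN2, 0.55 for PSENEN, 0.36 for NCSTN, -0.54 for APH1A and -0.22 for APP (adjusted p from 4.97e-06 to 0.00374). For BACE1 it was -0.13, with a 95% interval from -0.28 to 0.011 (adjusted p = 0.101), and it passed under median-ratio scaling (-0.23, adjusted p = 0.0122) and quantile normalization (-0.22, adjusted p = 0.0162), with adjusted p-values from 0.0122 to 0.309 over the alternatives. PSENEN and APLP2 were called in opposite directions by the 2 treatments, though the mimic call of PSENEN ended under quantile normalization (-0.075). Genes called in opposite directions made up 15.3% of those tested in both tables. BACE1 and APLP1 were called upward by both, as were 12.6% of the genes tested in both tables, and the call of BACE1 with LncND siRNA was the one lost under 10 of 14 alternatives.

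The order of levels can be read from FPKM, which is per length. With scrambled siRNA it ran from APP (222 ± 1.31 FPKM, mean ± SD, n = 3) through APH1A (133 ± 4.68), APLP2 (100.4 ± 1.31), PSENEN (75.6 ± 2.02), APLP1 (56.9 ± 2.01), NCSTN (44.3 ± 1.33), BACE1 (19.6 ± 0.65) and PSEN2 (10.3 ± 0.428) to APH1B (2.92 ± 0.0682), with no overlap between neighbours. With LncND siRNA, APLP2 (155 ± 2.41) and APLP1 (150.5 ± 4.96) followed APP (229 ± 2.84) and overlapped each other, and APH1A (86.9 ± 4.46) came after PSENEN (97.7 ± 0.437). With scrambled miRNA, PSENEN (102 ± 4.22, n = 2) and APH1A (99.8 ± 3.35) overlapped each other, behind APP (206 ± 2.61) and APLP2 (145 ± 0.355). With the mimic, APLP1 (107 ± 0.441) stood above APH1A (95.1 ± 0.181) and PSENEN (89.8 ± 4.28), and APLP2 (118 ± 4.51) above it. BACE1, PSEN2 and APH1B held the last 3 places in all 4 groups. The controls of the 2 tables were not alike for some members. APLP2 was near 100 FPKM with scrambled siRNA and 145 with scrambled miRNA, and APH1B at 2.92 and 4.89. APLP1 was at 56.9 and 88.1, PSENEN at 75.6 and 102, and APH1A at 133 and 99.8. Each of these differed in the direction of its change with LncND siRNA. APP and BACE1 were lower with scrambled miRNA, and NCSTN and PSEN2 a little higher. Ratios within a library, which a scaling factor does not touch, also differed. APH1A was 45.6 times APH1B with scrambled siRNA and 20.45 times with scrambled miRNA (means), and the APP share was 58.5% and 46.95%. The tables were normalized separately and the difference between controls was not tested.

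Promoters were set side by side for the member that fell most and the one that rose most with LncND siRNA, since these genes went apart. RefSeq promoter windows (GRCh38.p14, 300 bases around the start) were found for 8 of the 9 genes. Capitals mark GC boxes (GGGCGG) and CCAAT boxes (CCAAT), on either strand. The window of APH1A is chr1:150268967-150269266 on the minus strand, and that of APLP1 is chr19:35868324-35868623 on the plus strand.
APH1A: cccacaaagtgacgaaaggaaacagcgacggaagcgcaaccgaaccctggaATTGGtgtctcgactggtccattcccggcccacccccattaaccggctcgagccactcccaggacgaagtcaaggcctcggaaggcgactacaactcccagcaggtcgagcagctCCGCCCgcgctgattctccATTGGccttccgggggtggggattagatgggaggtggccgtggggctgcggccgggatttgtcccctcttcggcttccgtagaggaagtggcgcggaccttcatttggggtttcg
APLP1: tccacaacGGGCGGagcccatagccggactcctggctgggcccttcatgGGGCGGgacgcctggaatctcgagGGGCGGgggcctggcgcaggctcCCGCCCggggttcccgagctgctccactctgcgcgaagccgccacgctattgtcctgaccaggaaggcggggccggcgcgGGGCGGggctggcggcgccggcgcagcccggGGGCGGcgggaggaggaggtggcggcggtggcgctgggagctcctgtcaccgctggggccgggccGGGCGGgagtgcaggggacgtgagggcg
The APH1A window held 1 GC box and 2 CCAAT boxes and was 62.3% G and C. The APLP1 window held 7 GC boxes and no CCAAT box and was 77.7% G and C. Of the other genes that rose with LncND siRNA, PSEN2 held 3 GC boxes and APLP2 held 5, while PSENEN and NCSTN held 0. The BACE1 windows held 2, 0 and 1, and APH1B had no window. A link of these counts to the changes was not tested. Of 35116 windows of this length, 45.0% held a GC box and 34.6% a CCAAT box, and the median was 58.7% G and C. The E-box CACGTG and the cAMP response element TGACGTCA, held by 7.26% and 1.85% of windows, stood in none of the windows of the 8 genes. These are matches of letters and say nothing about what binds there.

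The wider pathway was read from 8 lists with 112 genes, of which 96 were tested in each comparison. With LncND siRNA 53 rose, 19 fell and 24 did not pass (median 0.137, against 0.024 over all tested genes), and with the mimic 32 rose, 33 fell and 31 did not pass (median -0.0145, against -0.062). The genes called were 75.0% and 67.7% of the 96, near the 66.9% and 63.3% of all tested genes, and the counts per list that follow are to be read beside 36.6% up and 30.3% down over all tested genes with LncND siRNA and 24.6% up and 38.6% down with the mimic. The mimic's counts were 39 up and 29 down under both median-ratio scaling and quantile normalization. Every list gene named here as rising or falling had a limma adjusted p of 0.0446 or less. Naming was done per comparison, so a gene named for 1 treatment may also have moved with the other. The sheddases and their partners cut or help to cut APP and similar proteins outside the membrane, apart from TIMP3, an inhibitor. Of this list, TIMP3 included, 7 of 13 rose and 3 fell with LncND siRNA. RHBDF1, an inactive rhomboid that helps the sheddase ADAM17 to mature, rose from 2.58 ± 0.345 to 4.43 ± 0.158 FPKM (SD, n = 3; 0.61 on the log2 scale, as for the other values in parentheses), and the protease inhibitor gene TIMP3 fell from 8.98 to 6.54 FPKM (-0.41). With the mimic 3 of 13 rose and 7 fell, RHBDF1 (-0.40) among them. TIMP3 rose there, from 13.1 to 17.9 FPKM (0.43), and the metalloprotease gene ADAM9 fell from 21.1 to 9.17 FPKM (-1.12 ± 0.056). TSPAN15, a tetraspanin that carries the alpha-secretase ADAM10, fell from 10.8 to 5.76 FPKM (-0.81) and the proprotein convertase gene PCSK7 rose from 14.9 to 22.4 FPKM (0.56).

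Of 7 genes for gamma-secretase assembly and modulators, 2 rose and 2 fell with LncND siRNA, and 1 rose and 5 fell with the mimic. RER1, a retrieval receptor that holds unassembled subunits early in the secretory pathway, rose with both, from 29.9 to 36.9 FPKM (0.29) and from 30.95 to 33.5 FPKM (0.11). PION, an older symbol of the gene of the gamma-secretase activating protein, rose from 2.95 to 4.44 FPKM with LncND siRNA (0.46). UBQLN1, a ubiquilin that binds presenilins, fell with both, by 0.22 and by 0.49. SLC2A13, a myo-inositol transporter gene, fell with the mimic from 3.26 to 1.71 FPKM (-0.65). The presenilin-related proteases, which cut membrane proteins of the opposite orientation, numbered 4. SPPL2B rose with LncND siRNA (0.16) and the other 3 did not pass. SPPL2A rose from 10.5 to 14.6 FPKM with the mimic (0.45) and HM13, the signal peptide peptidase gene, from 55.6 to 61.4 FPKM (0.14).

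Genes for BACE1 trafficking and turnover (12 tested) divided into 4 up and 3 down with LncND siRNA and 4 up and 5 down with the mimic. FBXO2, a ubiquitin ligase subunit that binds glycoproteins, rose from 2.89 to 13.1 FPKM with LncND siRNA (1.86 ± 0.075). It fell with the mimic (-0.32). The sorting adaptor GGA1 rose with both treatments (0.42 and 0.24) and its relative GGA2 fell with both (-0.21 and -0.46). Of the APP adaptors and sorting genes (21 tested), 13 rose and 3 fell with LncND siRNA, and 9 rose and 6 fell with the mimic. ITM2A rose from 31.1 to 65.2 FPKM (1.045) and the scaffold gene MAPK8IP1 from 15.8 to 29.3 FPKM (0.85), while the sorting receptor gene SORCS1 fell from 39.6 to 24.7 FPKM (-0.66). With the mimic the kinesin light chain gene KLC1 rose from 51.3 to 82.4 FPKM (0.67), and it also rose with LncND siRNA (0.55). The BRI family genes ITM2B and ITM2C, whose proteins bind APP, both fell with the mimic, while ITM2A rose (0.25). ITM2B went from 107 to 64.3 FPKM (-0.73) and ITM2C from 204 to 134 (-0.60). With LncND siRNA, ITM2B and ITM2C rose (0.42 and 0.11).

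Of 8 amyloid-beta degrading enzyme genes, 5 rose and 2 fell with LncND siRNA and 3 rose and 2 fell with the mimic. ACE, the angiotensin-converting enzyme gene, rose with both, from 6.61 to 26.5 FPKM (1.86 ± 0.050) and from 4.79 to 8.99 FPKM (0.78), and IDE, the insulin-degrading enzyme gene, fell with both (-0.23 and -0.38). Other BACE1 substrates rose in 8 of 9 cases with LncND siRNA (88.9%, beside 36.6% of all tested genes, and a median of 0.755). This list held 12 genes, of which 9 reached the filter. It was chosen with earlier results of these data known, so its share is a description and not a test. Among the genes that rose were SEZ6L, from 5.27 to 16.6 FPKM (1.48), and the axonal adhesion gene CNTN2, from 0.583 to 4.1 FPKM (1.68). CNTN2 lay at 0.536 to 0.627 FPKM in the controls, so only its LncND siRNA level took it over the filter of 1 FPKM. It is counted in the 8 of 9 and in the median. With the mimic 2 of 8 rose and 2 fell, with SEZ6L2 up from 43.1 to 79.7 FPKM (0.87) and the adhesion gene L1CAM up from 62.6 to 102 FPKM (0.69). SEZ6L2 and L1CAM also rose with LncND siRNA (1.07 and 0.755). Of other gamma-secretase substrates, 13 of 22 rose and 6 fell with LncND siRNA, and 8 of 23 rose and 6 fell with the mimic. The 13 include NGFR, at 0.387 to 0.514 FPKM in the controls, which also passed the filter only through its LncND siRNA level. DNER, a Notch ligand-like neuronal protein, rose with both, from 2.82 to 6.46 FPKM with LncND siRNA (0.97) and from 7.52 to 26.4 FPKM with the mimic (1.69 ± 0.051). The nectin gene PVRL1 fell with LncND siRNA (-0.39) and rose with the mimic (0.96), and CX3CL1, a membrane-bound chemokine, fell with both (-0.30 and -1.32). Of the list genes picked by the naming rule for the mimic, 6 of the 15 that rose and 6 of the 14 that fell held a seed match of 7 or 8 letters, beside 25.1% of all genes tested with the mimic that have an annotated 3′ UTR. The 3′ UTRs searched ran from 540 bases in SEZ6L2 to 13050 in KLC1. Their length was not taken into account, and these counts were not tested.

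**Figure D4:**
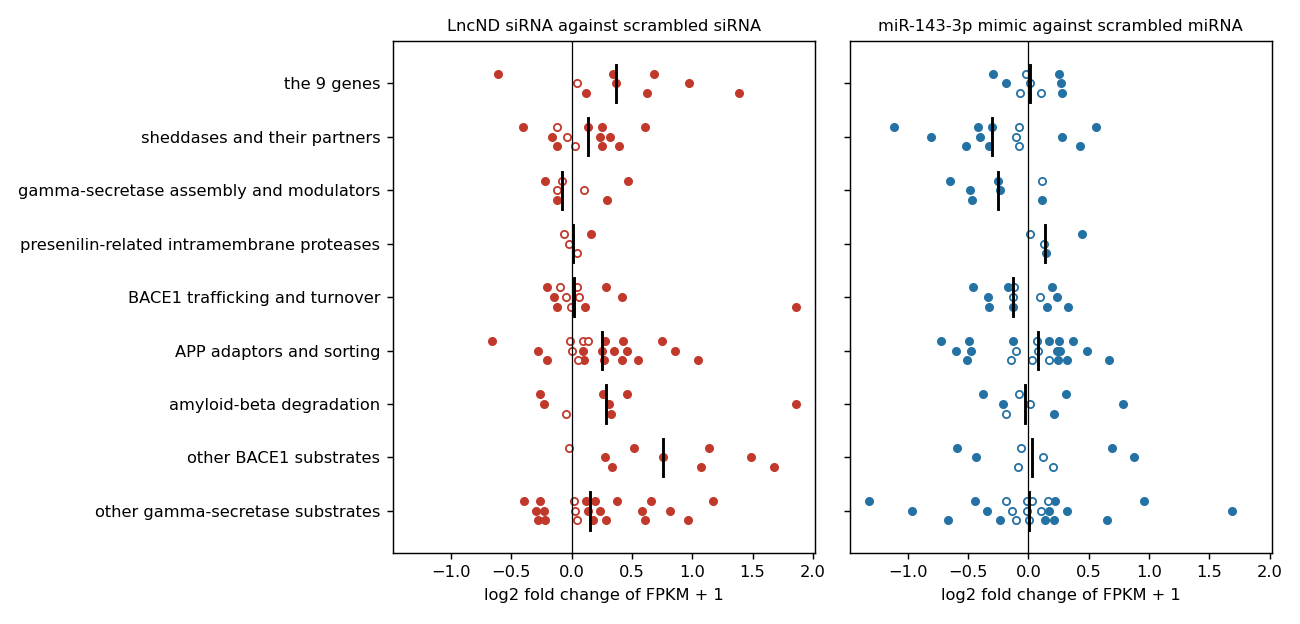
Change on the log2(FPKM + 1) scale (x axis) of each tested gene of the 9 and of the 8 pathway lists (rows), with LncND siRNA on the left and the mimic on the right. Filled points passed at an adjusted p under 0.05 and black bars are list medians. The median of other BACE1 substrates is 0.755 with LncND siRNA and 0.031 with the mimic. The lists were chosen with earlier results of these data known.

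For each member the genes with the most similar pattern were sought over the 10 libraries among 12326 others, by Pearson correlation of log2(FPKM + 1) centred on the mean of its own table. The libraries form treated and control groups, so r mainly reads the 2 effects and is given as a description. The closest genes were RCC2 and RNF122 for APH1A (r = 0.996 and 0.995), C9orf72 and MAPK10 for APH1B (0.998 each), REEP1 and PLCB3 for PSEN2 (0.997 each), and FAM20C and ANXA4 for PSENEN (0.991 and 0.99). They were TRIM62 and CPT1A for NCSTN (0.994 and 0.991), CA5B and PPARA for BACE1 (0.995 and 0.992), SCRN1 and BMPR1B for APP (0.994 and 0.993), NDRG4 and PLD3 for APLP1 (0.999 each), and SPATA18 and SYN2 for APLP2 (0.998 each). Such likeness was common, with r over 0.95 for 738 genes in the case of APLP1 and for 75 in that of BACE1.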

How the data were processed

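Poly(A) RNA libraries of SH-SY5Y cells were analysed from FPKM tables that the authors deposited, one per experiment (6 and 4 libraries). RNA was taken with the MirVana kit and libraries were made with a stranded TruSeq kit, per the labels' protocols. Per the submitters' processing notes, TopHat (listed as version 1.0.0), Cufflinks and hg19 were used. For the annotation, the strand setting and any filter, the authors' choices were not given in the sources used here. FPKM is scaled to each library's total, so a few abundant transcripts can shift all others.

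Rows off assembled chromosomes (1304) or with a status word in place of a value (292 and 282) were left out. For a repeated name the row with the highest mean was kept. Genes whose mean reached 1 FPKM were tested in limma 3.58.1 (R 4.3.3) on the log2(FPKM + 1) scale (2-sided, mean-variance trend, Benjamini-Hochberg), each table alone. The pseudocount understates the change of low genes. The difference of both effects was tested over the genes tested in both tables. Whether replicates were separate cultures is not in the labels, so the p-values reflect library spread that may be technical. The fit was tested on simulated data. Named genes were all 9 members and, from each list, up to 2 called genes with the largest rise and 2 with the largest fall, with groups that do not overlap. The members and lists were chosen with earlier results of these data known. One result of the seed search is not reported here.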

Additional observations from a re-analysis of the deposited data

How the results depend on the processing

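The 9 genes were refitted with a pseudocount of 0.1, with no filter or one of 5 FPKM, with median-ratio scaling, quantile normalization, no variance trend, summed rows, the replicate number as a block, and without each library. APH1B was not tested at the filter of 5 FPKM. Apart from the changes given above for BACE1, PSENEN and PSEN2, the members kept their side of the threshold in these refits, and no called change reversed. The number of members falling with the mimic was 1 under quantile normalization, and 1 to 2 when leaving out 1 library each, which leaves 1 library in an arm whose spread is assumed to match the others. Median-ratio scaling moved the median change of all tested genes to -0.0014 with LncND siRNA and 0.0016 with the mimic, shifts of under 0.1. The deviations of same-numbered libraries from their group means did not all correlate above 0.1 in the siRNA table (r = 0.068, 0.21 and -0.053). In the miRNA table r was 0.14 for both pairs, which mirror each other with 2 libraries a group and so give 1 value. These few values cannot decide whether the numbers pair the libraries, and the main fits did not pair them. With the replicate block, 7 members were called with LncND siRNA, 5 with the mimic and 8 for the difference. The 2 or 3 libraries a group and the estimated depths limit the precision.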
